A study of Mus musculus with 20 samples.

Results

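Lymph nodes that drain the cecum and colon were compared with inguinal nodes, which drain skin, in mice without mature T and B cells. The comparison uses every ceco-colonic library and every inguinal library of the series, 8 of 20 in all, taken from the columns of the deposited gene table whose names carry those positions. Each position gave 4 libraries of polyA RNA from whole, unsorted nodes. The mice of all groups were 9 weeks old and carried the same genotype, Rag1-/- (B6.129S7-Rag1tm1Mom/J), so the inguinal nodes are a reference for position and not for genotype. No group received a treatment. The other 12 libraries were 4 each from nodes of the duodenum, jejunum and ileum in mice of the same age and genotype. They are used to show where the ceco-colonic node also differs from small intestinal nodes. They were also fitted together with the 8, so they entered the gene filter, the normalization and the spread behind every p-value. Whether the 4 libraries of a position are from different animals is not stated, so p-values reflect only how much these libraries vary, which may be technical. Neither the sex of the mice nor any pooling of nodes is stated in the labels.

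A lymph node is built on a scaffold of fibroblastic reticular cells, blood vessels and lymphatic sinuses, on which macrophages, dendritic cells and lymphocytes are placed. Rag1 encodes the recombinase that cuts antigen receptor genes, and without it T and B cells do not mature, so RNA from these nodes comes largely from stroma and innate cells. Nodes of the gut receive dendritic cells and lymph from the intestine, where vitamin A is turned into retinoic acid and where the vessels carry the addressin MAdCAM-1. Inguinal nodes receive lymph from skin, with its Langerhans cells, and their vessels carry the sulfated peripheral node addressin that binds L-selectin.

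Rag1 itself was counted at 2.8, 3.05, 2.19 and 2.74 CPM in ceco-colonic and 3.43, 3.2, 2.83 and 3.22 CPM in inguinal libraries, where CPM is the estimated count scaled to the library total after normalization. The 2 groups overlapped and the gene was not called (adjusted p = 0.201), and since every mouse carried the mutation, this level checks no label. Total estimated counts ran from 171075440 to 273306036 in ceco-colonic and from 148231955 to 294217035 in inguinal libraries. The node markers Ccl21a, Ccl19, Cxcl13, Pdpn, Lyve1, Prox1, Glycam1, Csf1r and Itgax were present in all 8 libraries. Of the defining lymphocyte genes, Cd3e, a signaling chain of the T-cell receptor, stood at only 0.256, 0.178, 0.211 and 0.237 CPM in ceco-colonic libraries. A principal component analysis of the 8 libraries separated the positions on its first component (64.9% of the variance), and its second component (13%) set ceco-colonic libraries 1 and 2 apart from 3 and 4. Inguinal library 1 held more adipocyte RNA than the others, with a summed level of 14 adipocyte genes of 1399 CPM against 335 to 558 CPM in the other inguinal and 322 to 708 CPM in the ceco-colonic libraries. In bulk tissue, fewer cells of a type and less RNA per cell cannot be told apart, and this holds for every level below.

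Of 29411 genes tested, 6168 differed between ceco-colonic and inguinal nodes, 3128 of them higher and 3040 lower in the ceco-colonic node, at an adjusted p under 0.05 (quasi-likelihood test of edgeR, p-values adjusted by Benjamini and Hochberg over all genes). These are 21% of the genes tested, 10.6% higher and 10.3% lower, and they are the background against which the counts of each gene group are read. The genes of the groups were called more often than this as a whole, 316 of 628 in either direction. A group above the background is therefore not by that set apart from the other groups. A change of at least 2-fold was reached by 1625 of the 6168 genes, 5.53% of the genes tested. The median log2 fold change over all genes was -0.01. Throughout, a fold change is the ceco-colonic over the inguinal level, and a log2 fold change of 1 is a doubling. The ± beside it is an approximate standard error. It is the size of the log2 fold change divided by the square root of the test's F statistic. For genes near 0 in a group it can understate the uncertainty. A gene is written as higher or lower only where it passed this test, and every adjusted p is from it. All 4 ceco-colonic libraries lay on 1 side of all 4 inguinal libraries for 7821 genes, 26.6% of those tested.

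**Figure D1:**
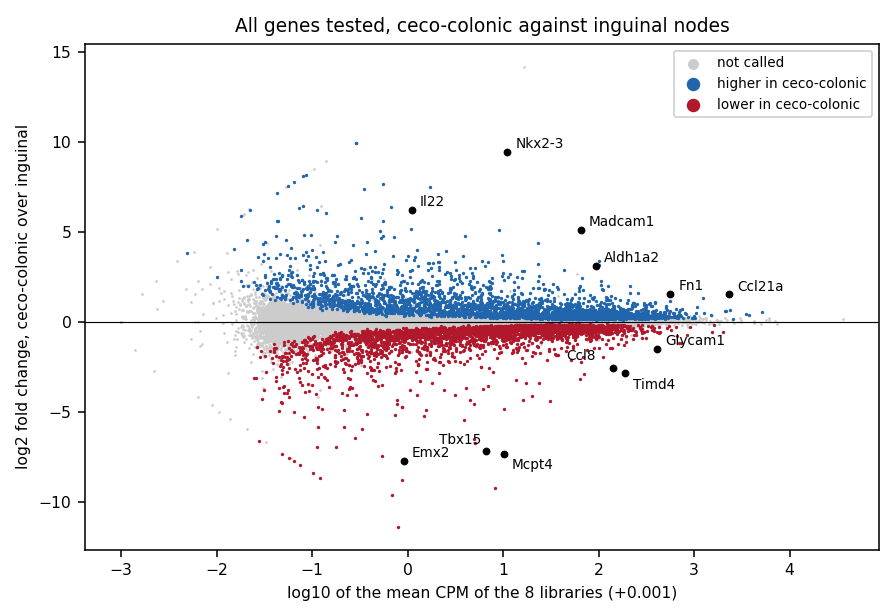
Log2 fold change of ceco-colonic over inguinal nodes (vertical axis) against the log10 mean CPM of the 8 libraries (horizontal axis) for the 29411 genes tested; each point is a gene, blue where called higher (3128) and red where called lower (3040) in the ceco-colonic node. Of the labelled genes Nkx2-3 lies at 9.44 and Mcpt4 at -7.34, and Ccl21a and Fn1 are among the most abundant genes called higher.

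Among called genes with at least 5 CPM in the higher group and no overlap between the groups, the 12 highest and the 12 lowest log2 fold changes were examined first. Nkx2-3, a homeobox factor of gut and spleen mesenchyme, was measured at 22.9, 22.1, 21.6 and 22.1 CPM in ceco-colonic and 0.0486, 0.013, 0.0306 and 0.0452 CPM in inguinal libraries (log2 fold change 9.44 ± 0.18, adjusted p = 6.15e-18). The inguinal level was near the lower limit of detection in every library, so the groups lay far apart. The log2 fold change of Nkx2-3 ran from 9.05 to 9.69 over the alternative settings of the analysis, a wider span than its ± gives. The next highest fold changes among these were those of Lrrn2, a leucine-rich repeat membrane protein (log2 fold change 5.10 ± 0.15), and Madcam1, described below. Among genes of the extracellular matrix, Mfap4, a microfibril protein, Cilp, a cartilage-type matrix protein, and Mgp, an inhibitor of calcification, had log2 fold changes of 4.76 ± 0.43, 4.38 ± 0.30 and 3.39 ± 0.25. At the other end of this set stood mast cell proteases, the T-box factor Tbx15, the Langerhans cell lectin gene Cd207, the macrophage lectins Cd209f and Cd209g (-4.43 ± 0.29 and -4.34 ± 0.37) and the collagen chain gene Col6a6 (-4.13 ± 0.20). Mup22 had the lowest value of all genes named here (-9.21 ± 0.41), but it belongs to a family of near-identical genes whose reads may be shared between members.

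**Figure D2:**
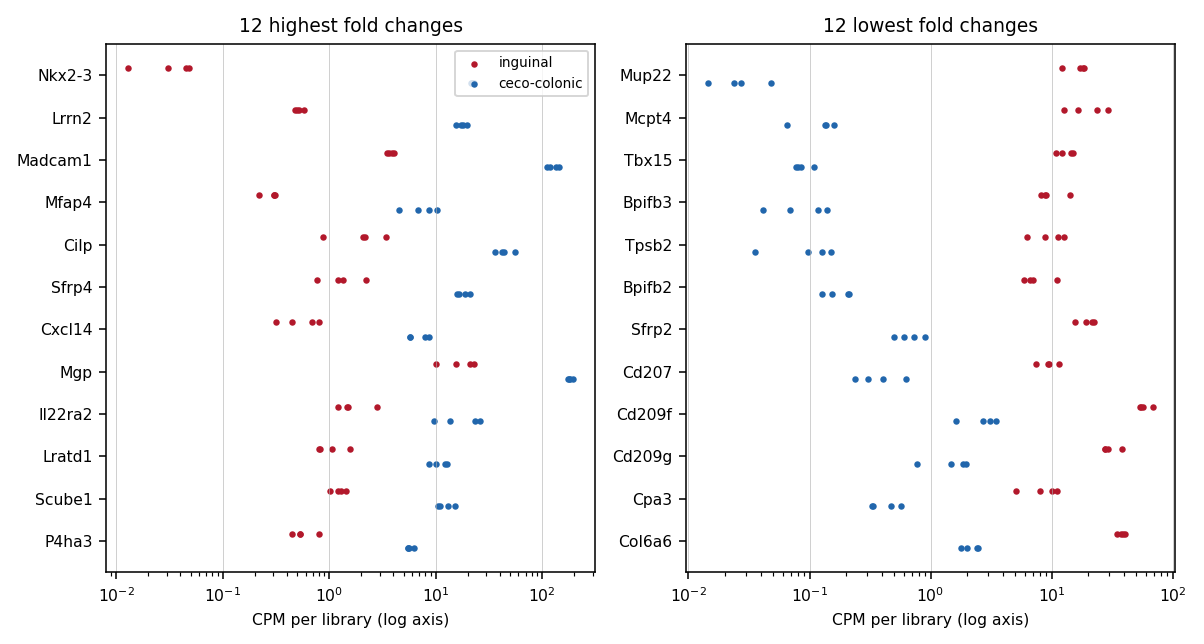
CPM in each library (horizontal log axis) for the 12 genes with the highest and the 12 with the lowest log2 fold change among called genes with at least 5 CPM in the higher group and no overlap; each point is 1 library, red for inguinal and blue for ceco-colonic. The groups lie apart because the genes were chosen for this. Log2 fold changes run from 9.44 (Nkx2-3) to 3.31 (P4ha3) on the left and from -9.21 (Mup22) to -4.13 (Col6a6) on the right.

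Regional transcription factors of the mesenchyme moved in both directions. Of 35 tested, 7 were higher and 10 lower, with a median log2 fold change of 0.05. Factors of the gut wall and visceral mesenchyme were on the higher side: besides Nkx2-3, these were Tcf21 (1.21, 1.12, 1.52 and 1.42 CPM in ceco-colonic and 0, 0.0228, 0 and 0.0388 CPM in inguinal libraries), Nkx3-2 (0.293, 0.446, 0.357 and 0.237 against 0.0216, 0.0228, 0.0766 and 0.0258 CPM) and Hand2 (0.245, 0.273, 0.35 and 0.229 against 0.027, 0.0585, 0.0408 and 0.0517 CPM). For each of the 3 the groups did not overlap, though their levels were low, and inguinal Tcf21 was at 0 in 2 libraries. Their fitted log2 fold changes rest partly on single libraries: that of Tcf21 was 6.37, 6.97 without inguinal library 4 and 7.12 with limma-voom, and that of Nkx3-2 was 3.18, and 3.80 without inguinal library 3. The call of Hand2 was lost with limma-voom (adjusted p = 0.0545). Tbx15, which patterns limb and dorsal skin mesenchyme, stood at 0.0853, 0.0772, 0.0802 and 0.109 CPM in ceco-colonic and 12.1, 10.9, 15.1 and 14.5 CPM in inguinal libraries (log2 fold change -7.21 ± 0.31, adjusted p = 3.76e-12). Emx2, a homeobox factor of urogenital development, was listed at 0, 0.0119, 0 and 0.0194 CPM in ceco-colonic and 1.75, 1.74, 2.0 and 1.72 CPM in inguinal libraries, with a log2 fold change of -7.74, and of -8.89 without ceco-colonic library 4. En1 (0.0533, 0.0297, 0.0255 and 0.0466 against 1.21, 1.26, 1.82 and 1.42 CPM) and Twist1 (0.56, 0.463, 0.539 and 0.47 against 3.44, 3.52, 3.89 and 4.03 CPM) were also lower, with log2 fold changes of -5.19 ± 0.41 and -2.87 ± 0.25. Prrx1, a factor of limb mesenchyme, was the most abundant of the lower ones, at 24.8, 26.6, 24.5 and 26.4 CPM in ceco-colonic and 63.8, 64.8, 70.8 and 74.6 CPM in inguinal libraries (log2 fold change -1.42 ± 0.09, adjusted p = 6.32e-10). The number of higher factors varied between 6 and 11 over the alternative settings of the analysis.

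Madcam1, the gene of the gut addressin that binds the integrin alpha4beta7, was at 120.0, 144, 137 and 110.4 CPM in ceco-colonic and 3.52, 3.85, 3.67 and 4.05 CPM in inguinal libraries. The lowest ceco-colonic library was 27.2 times the highest inguinal one, and the fitted difference was large (log2 fold change 5.08 ± 0.22, adjusted p = 3.36e-12). The 12 small intestinal libraries had a lowest, median and highest level of 33.3, 58.1 and 103 CPM, and the ceco-colonic node was higher than them too (log2 fold change 1.06 ± 0.14, adjusted p = 1.68e-05). Because Madcam1 is a vessel gene whose promoter is known for a pair of NF-kappaB elements, the 250 bases before its start are shown, from RefSeq in the build GRCm38.p6 at chr10:79664309-79664558 on the plus strand, with the matches to GGG, any 2 bases and TTTCC in capitals.
Madcam1: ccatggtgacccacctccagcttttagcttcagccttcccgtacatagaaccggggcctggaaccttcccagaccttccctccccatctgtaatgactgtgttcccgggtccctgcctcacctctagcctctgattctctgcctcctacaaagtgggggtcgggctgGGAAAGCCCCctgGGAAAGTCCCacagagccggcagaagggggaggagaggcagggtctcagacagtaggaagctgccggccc
Both matches are on the minus strand, they do not overlap each other, and they end 73 and 60 bases before the start. Searched on both strands, 1.41% of 32851 promoters of this length hold the motif, and a match is a description of the letters and not of binding.

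The Hox genes, which record position along the body axis, did not follow a single direction. Of 31 tested, 5 were higher and 7 lower in the ceco-colonic than in the inguinal node, with a median log2 fold change of -0.22. The higher ones were mostly from the posterior end of the A and D clusters. Hoxa9 was at 5.58, 6.03, 4.92 and 5.72 CPM in ceco-colonic and 2.95, 2.09, 1.98 and 2.61 CPM in inguinal libraries (log2 fold change 1.21 ± 0.15, adjusted p = 3.56e-06), and Hoxa10 at 3.63, 4.47, 3.3 and 3.33 against 1.73, 1.75, 1.98 and 1.89 CPM (log2 fold change 1.0 ± 0.16, adjusted p = 0.000118). Hoxd11 stood at 1.25, 1.78, 1.63 and 0.885 against 0.0918, 0.0325, 0.0613 and 0.0258 CPM, a log2 fold change of 4.72 ± 0.36, and Hoxa11 reached only 0.235, 0.261, 0.157 and 0.0892 CPM against 0, 0.0065, 0 and 0.0194 CPM. With transcript estimates summed per gene the value of Hoxd11 was 4.08. The log2 fold change of Hoxa11 was 4.81, and 5.76 without inguinal library 4. In all 4 genes the groups did not overlap. Hoxc4, from the anterior end of its cluster, was the other gene on the higher side (0.50 ± 0.09).

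Among the lower Hox genes the changes were small. Hoxb5, Hoxb7 and Hoxb8 had log2 fold changes of -0.52 ± 0.10, -0.59 ± 0.11 and -0.62 ± 0.13. Hoxc10 was not called: it was at 6.7, 7.4, 6.42 and 6.4 CPM in ceco-colonic and 6.39, 6.53, 7.06 and 7.13 CPM in inguinal libraries, and its log2 fold change of -0.01 ± 0.33 had an adjusted p of 0.989. In small intestinal nodes the same gene had a lowest, median and highest level of 0, 0.134 and 1.54 CPM, so both distal positions were above the small intestinal ones (ceco-colonic against small intestinal, log2 fold change 5.34 ± 0.28, adjusted p = 1.2e-10). Hoxd10 was not called against the inguinal node either (3.75, 3.71, 3.56 and 3.31 against 4.62, 4.49, 4.09 and 3.91 CPM, adjusted p = 0.319). Unlike for Hoxc10, all its ceco-colonic libraries lay below all inguinal ones. Against small intestinal nodes 14 of the 31 Hox genes were higher and 9 lower in the ceco-colonic node, where 7.74% and 8.90% of all genes tested were higher and lower.

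**Figure D3:**
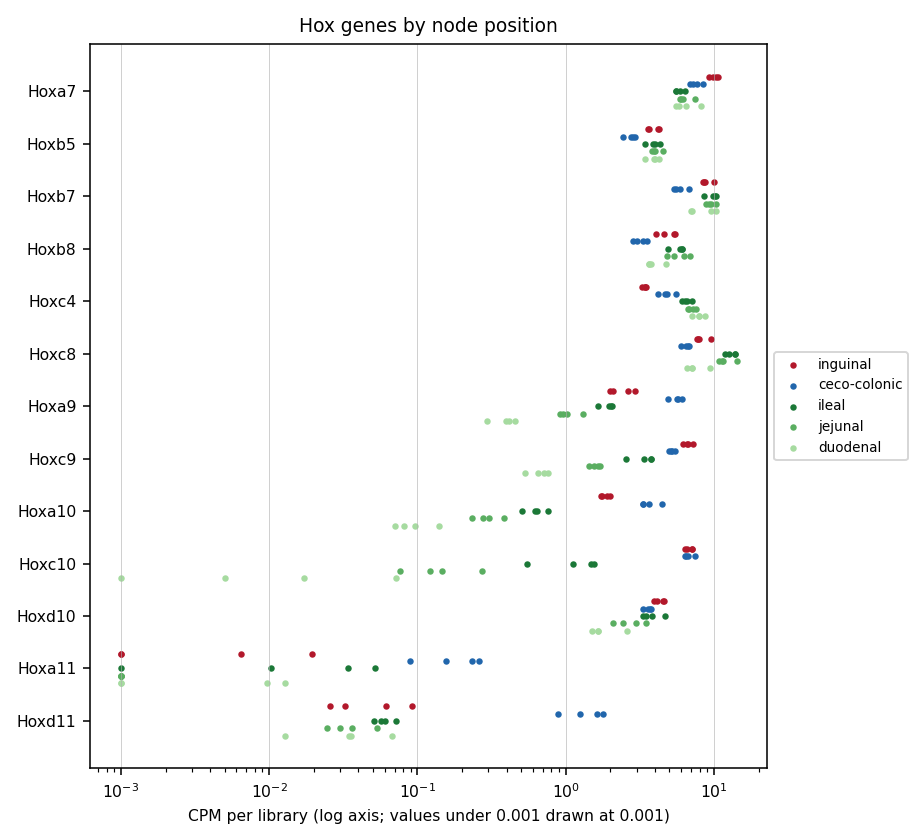
CPM in each of the 20 libraries (horizontal log axis, values under 0.001 drawn at 0.001) for 13 Hox genes, colored by node position. Hoxa11 and Hoxd11 are highest in the 4 ceco-colonic libraries, Hoxc10 is at a like level in ceco-colonic (6.4 to 7.40 CPM) and inguinal libraries (6.39 to 7.13 CPM), and all 4 ceco-colonic libraries lie below all others for Hoxb5, Hoxb7 and Hoxb8.

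Genes of vitamin A handling changed in both directions in the ceco-colonic node. Of 22 genes tested, 7 were higher and 8 lower (median -0.22). Aldh1a2, the enzyme that makes retinoic acid in stroma and dendritic cells, was at 167, 169.8, 153 and 187 CPM in ceco-colonic and 22, 16.1, 20.9 and 18.6 CPM in inguinal libraries (log2 fold change 3.13 ± 0.16, adjusted p = 2.32e-11). The lowest ceco-colonic library was well above the highest inguinal one. Aldh1a1, a gene of the same enzyme family, was lower instead (log2 fold change -0.82, adjusted p = 0.025). That call was lost with limma-voom (adjusted p = 0.0681) and when some single libraries were left out. Aldh1a1 was also lower than in small intestinal nodes (-1.96, adjusted p = 4e-06). Against those nodes 3 of the 22 genes were higher and 10 lower, where 7.74% and 8.90% of all genes tested were. Stra6, a retinol uptake receptor, was at 11.7, 13.3, 13 and 13.5 against 1.69, 3.25, 2.2 and 2.29 CPM (2.45 ± 0.22), and Lrat, which esterifies retinol for storage, at 10.9, 8.5, 6.67 and 10.1 against 2.91, 2.54, 3.25 and 3.47 CPM (1.57 ± 0.19). Cyp26b1, which degrades retinoic acid, went the other way, at 19.6, 19.4, 20.8 and 33.2 CPM in ceco-colonic and 79.2, 88.5, 132 and 133 CPM in inguinal libraries (log2 fold change -2.22 ± 0.35, adjusted p = 8.95e-05). Ceco-colonic library 4 was the highest of its group and still below every inguinal library.

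The alcohol dehydrogenase gene Adh1 (-1.14 ± 0.14) and the receptors Rara, Rarg and Rxra (-0.27 ± 0.05, -0.48 ± 0.09 and -0.46 ± 0.10) were lower by smaller amounts. Rarb, a receptor gene that retinoic acid itself induces, was the receptor on the higher side, at 1.48, 0.844, 1.81 and 1.52 CPM in ceco-colonic and 0.437, 0.537, 0.618 and 0.808 CPM in inguinal libraries (log2 fold change 1.25 ± 0.22, adjusted p = 0.000256). Its promoter is shown for the direct repeat it is known for, the match to GGTTCA, any 5 bases and AGTTCA in capitals, in the 250 bases before its RefSeq start at chr14:16575477-16575726 (GRCm38.p6, minus strand, printed 5′ to 3′ along the gene).
Rarb: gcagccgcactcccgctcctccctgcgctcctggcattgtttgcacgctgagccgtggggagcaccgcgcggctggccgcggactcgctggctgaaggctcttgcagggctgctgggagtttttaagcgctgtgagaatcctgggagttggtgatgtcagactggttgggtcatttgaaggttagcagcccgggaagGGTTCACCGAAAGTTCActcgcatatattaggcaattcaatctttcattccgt
The match ends 36 bases before the start. Only 2 of 32851 promoters of this length hold it on either strand (0.00609%), and of the 19 list genes with a promoter entry Rarb was the one that did.

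The genes of high endothelial venules, the vessels through which lymphocytes enter a node, were mostly lower. Of 17 genes of the venule and its addressins, 3 were higher and 9 lower, with a median log2 fold change of -0.21. Glycam1, a mucin that carries L-selectin ligands, was at 217, 261, 166 and 208 CPM in ceco-colonic and 714, 613, 549 and 579 CPM in inguinal libraries (log2 fold change -1.53 ± 0.32, adjusted p = 0.00152). Chst4, the sulfotransferase that makes the peripheral node addressin epitope, was at 8.54, 11.8, 9.08 and 10.4 against 24.6, 39.3, 36.2 and 30.6 CPM (log2 fold change -1.72 ± 0.32, adjusted p = 0.000449). Neither gene overlapped between groups. Fut7, a fucosyltransferase of the same ligands (-0.93 ± 0.23), and St3gal6, a sialyltransferase (-0.69 ± 0.06), were lower, while Fut4 was higher (0.66 ± 0.11).

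General blood endothelial genes were also lower: 10 of 17 passed the test in that direction, with a median of -0.38. Vwf, the von Willebrand factor gene, was at 123, 124, 104 and 112 CPM in ceco-colonic and 220.1, 244, 242 and 206 CPM in inguinal libraries (log2 fold change -0.98 ± 0.13, adjusted p = 1.37e-05). The junction genes Cldn5, Pecam1 and Cdh5 had log2 fold changes of -0.85 ± 0.13, -0.48 ± 0.07 and -0.48 ± 0.09. The summed level of the 17 genes ran from 1918 to 2039.7 CPM in ceco-colonic and from 2337 to 2702 CPM in inguinal libraries, without overlap. Whether the venule genes changed beyond the share of blood vessel RNA was not tested.

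Lymphatic and sinus-lining genes split. Of 19 tested, 5 were higher and 9 lower, with a median of -0.40. Spns2, the transporter that releases sphingosine-1-phosphate, was at 123, 124, 139 and 127 CPM in ceco-colonic and 187, 183, 196 and 203 CPM in inguinal libraries (log2 fold change -0.58 ± 0.07, adjusted p = 7.69e-06), and Flt4, the receptor for the lymphatic growth factor VEGF-C, at 68.4, 62.6, 81.1 and 52.1 against 103, 89.7, 103 and 103 CPM (-0.60 ± 0.16). Lyve1, which binds hyaluronan on lymphatic endothelium, was at 124, 109, 125 and 73.9 CPM in ceco-colonic and 169.8, 153, 165 and 181 CPM in inguinal libraries (log2 fold change -0.63 ± 0.18, adjusted p = 0.0154). Ceco-colonic library 4 was its lowest, and without that library the adjusted p of Lyve1 was 0.058. The higher members included Cd274, which encodes PD-L1, at 188, 185, 181 and 184 against 97.1, 117, 107 and 109 CPM (log2 fold change 0.78 ± 0.07, adjusted p = 1.21e-07), and Ccl21a, described with the chemokines. Compared with small intestinal nodes, 12 of the 19 genes were lower and 5 higher in the ceco-colonic node.

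Macrophage genes were lower in the ceco-colonic node. Of 19 genes of resident and sinus macrophages, 11 were lower and 1 higher (median -0.41). Without ceco-colonic library 4 the lower ones numbered 7. Timd4, a phosphatidylserine receptor of long-lived resident macrophages, had the largest change, at 51.9, 42.2, 37.4 and 52.5 CPM in ceco-colonic and 354, 329, 307 and 336 CPM in inguinal libraries (log2 fold change -2.85 ± 0.16, adjusted p = 1.15e-10). Every inguinal library was at least 5.84 times every ceco-colonic one. Folr2, a folate receptor of tissue macrophages, was at 14.3, 16.6, 16.6 and 15.8 against 59.3, 52.2, 46.3 and 57.7 CPM (-1.77 ± 0.17), and Mrc1, the mannose receptor, at 111, 90.6, 91.3 and 81.1 against 222, 212, 237 and 225 CPM (-1.26 ± 0.14).

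The lectin genes Cd209f (3.09, 3.48, 2.72 and 1.61 CPM in ceco-colonic and 56.8, 53.9, 68.8 and 54.6 CPM in inguinal libraries) and Cd209g (1.87, 1.95, 1.47 and 0.78 against 27.5, 29.1, 38.2 and 27.7 CPM) belong with these by cell type but were chosen by the size of their change. Hmox1, the heme-degrading enzyme, was lower at 73.1, 80.3, 77.8 and 68.2 against 165, 156, 136 and 353 CPM (log2 fold change -1.44 ± 0.20, adjusted p = 2.45e-05). Inguinal library 4 stood above the other 3 in Hmox1, and the groups did not overlap. Marco, a scavenger receptor of medullary macrophages, overlapped between groups (701, 809, 700.1 and 605 CPM in ceco-colonic and 856, 811, 640.0 and 889 CPM in inguinal libraries) and was not called (adjusted p = 0.373). Cd5l, a secreted macrophage protein, was the member on the higher side (0.67 ± 0.16).

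Reticular cells are the fibroblasts of the node, and their genes changed in both directions. In the T zone 4 of 10 reticular genes were higher and 1 was lower (median 0.35), the lower one losing its call when any one of 6 of the 8 libraries was left out, and of 10 medullary reticular genes 5 were higher and 2 lower (median 0.19). In the follicular and marginal zone 7 of 11 reticular genes were lower and 3 higher (median -0.60). Madcam1 is among these higher ones, and the venule and lymphatic lists hold it too. Ccl21a, the chemokine that draws dendritic cells and T cells into the T zone, was at 3283, 3959.6, 3233 and 3303 CPM in ceco-colonic and 823, 1216, 1559 and 1215 CPM in inguinal libraries (log2 fold change 1.52 ± 0.21, adjusted p = 1.95e-05). It shares near-identical copies, so the reads of the Ccl21 family may be split between them. Ccl19, its partner ligand at the receptor CCR7, was higher as well, at 522, 489, 412 and 435 against 195, 278, 271 and 257 CPM (log2 fold change 0.89 ± 0.16, adjusted p = 0.000239). Pdpn, the podoplanin gene of reticular cells, followed at 20.8, 22.7, 19.4 and 23.1 against 11.2, 11.3, 12.3 and 12.6 CPM (0.86 ± 0.09).

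Cxcl13, the chemokine of follicular stroma that attracts B cells, was lower, at 53.5, 83.5, 65.6 and 77.7 CPM in ceco-colonic and 191, 235, 174 and 182 CPM in inguinal libraries (log2 fold change -1.48 ± 0.29, adjusted p = 0.000867). The highest ceco-colonic library was far below the lowest inguinal one. Postn, the matrix protein periostin (-1.10 ± 0.09), and Enpp2, the enzyme autotaxin (-0.80 ± 0.10), were lower too. Grem1, a secreted BMP inhibitor made by reticular cells, was higher at 193, 192, 164 and 155 CPM in ceco-colonic and 32.4, 27.8, 41.9 and 42.6 CPM in inguinal libraries (log2 fold change 2.28 ± 0.18, adjusted p = 1.52e-08). In the medullary group Il6 was at 4.02, 4.33, 2.62 and 4.18 against 0.448, 0.423, 0.322 and 0.336 CPM (log2 fold change 3.30 ± 0.23, adjusted p = 2.84e-09), while Inmt, a methyltransferase gene, was lower (-1.23 ± 0.20).

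Matrix genes of adventitial fibroblasts were mostly higher or not called. Of 26 tested, 8 were higher and 3 lower (median 0.03), and the lower ones numbered 6 with only the 2 groups fitted and 5 without the duodenal libraries that hold pancreatic RNA. Col14a1, a fibril-associated collagen, was at 175, 176, 197 and 169.8 CPM in ceco-colonic and 21.9, 15.5, 20.2 and 23.5 CPM in inguinal libraries (log2 fold change 3.15 ± 0.14, adjusted p = 4.02e-12). Fn1, fibronectin, was among the most abundant genes to change, at 839, 847, 922 and 767 against 204, 299, 321 and 318 CPM (log2 fold change 1.56 ± 0.14, adjusted p = 8.67e-08). Lum, a small leucine-rich proteoglycan (1.99 ± 0.16), and Dpp4, a surface protease of adventitial fibroblasts (1.31 ± 0.11), were higher as well. Inguinal library 1, which held the most adipocyte RNA, was the lowest inguinal library for Fn1 and Lum. A pair of collagen VI chains were lower: Col6a5 (-1.87 ± 0.25) and Col6a6, at 2.48, 1.77, 2.42 and 1.98 CPM in ceco-colonic and 37.1, 39.3, 35 and 40.7 CPM in inguinal libraries (log2 fold change -4.13 ± 0.20, adjusted p = 1.5e-11).

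Secreted modulators of Wnt and BMP signaling changed in both directions: 11 of 27 were higher and 9 lower, with a median near 0 (-0.01). Sfrp2 and Sfrp4, secreted Wnt-binding proteins of 1 family, moved in opposite directions. Sfrp4 was at 16.7, 21.2, 18.7 and 16 CPM in ceco-colonic and 0.772, 1.21, 1.36 and 2.22 CPM in inguinal libraries (log2 fold change 3.71 ± 0.23, adjusted p = 3.55e-10), and Sfrp2 at 0.73, 0.499, 0.904 and 0.605 against 15.6, 22.2, 19.1 and 21.5 CPM (log2 fold change -4.83 ± 0.26, adjusted p = 4.41e-11). Neither overlapped between groups. Wnt2b, a Wnt ligand of gut mesenchyme, was at 17.3, 14.8, 18.7 and 17.4 against 3.91, 3.11, 3.02 and 3.64 CPM (2.32 ± 0.11), and the modulators Dkk3 and Frzb had log2 fold changes of 1.78 ± 0.08 and 1.94 ± 0.20. Of the BMP ligands, Bmp5 (3.33, 3.37, 3.08 and 3.7 against 0.723, 0.595, 0.633 and 0.821 CPM, 2.29 ± 0.21) and Bmp2 (1.05 ± 0.11) were higher and Bmp7 was lower (-1.09 ± 0.11). Rspo1, a Wnt enhancer (-1.04 ± 0.15), and Fst, the activin-binding follistatin (-1.27 ± 0.26), were lower.

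Chemokines and their receptors were more often higher. Of 21 homeostatic chemokine and receptor genes 8 were higher and 3 lower (median 0.06), and of 20 inflammatory chemokines 9 were higher and 2 lower (median 0.51). The lower inflammatory chemokines numbered 1 without inguinal library 2, ceco-colonic library 3 or ceco-colonic library 4. Cxcl14, a stromal chemokine, was at 5.8, 8.03, 5.73 and 8.72 CPM in ceco-colonic and 0.696, 0.319, 0.444 and 0.795 CPM in inguinal libraries (log2 fold change 3.68 ± 0.23, adjusted p = 6.44e-10). Ccr10, the receptor for the skin chemokine CCL27, was at 0.832, 0.57, 1.1 and 0.877 against 12, 8.99, 11.5 and 13.2 CPM (log2 fold change -3.75 ± 0.16, adjusted p = 3.76e-12). Gpr15, a receptor best known on T cells that home to the colon, was also lower in the ceco-colonic node, at 3.13, 2.74, 2.79 and 3.18 against 7.7, 6.71, 6.72 and 8.81 CPM (-1.34 ± 0.12). Cxcr5, the receptor for CXCL13, was higher (5.8, 4.56, 4.44 and 6.03 against 0.945, 0.862, 1.09 and 1.12 CPM, 2.38 ± 0.27) although its ligand was lower.

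Ccl8, a chemokine of macrophages and fibroblasts, was the chemokine ligand with the largest fall, at 42.3, 52.1, 22.4 and 49.5 CPM in ceco-colonic and 244, 286, 191 and 248 CPM in inguinal libraries (log2 fold change -2.54 ± 0.27, adjusted p = 6.01e-07). Ceco-colonic library 3 was the lowest of its group. Small intestinal nodes had even less, with a lowest, median and highest level of 1.69, 2.79 and 6.24 CPM, so the ceco-colonic node lay between them and the inguinal node (3.79 on the log2 scale above small intestinal nodes). Ccl17, a ligand of CCR4 made by dendritic cells, was higher, at 37.1, 38.2, 25.9 and 37.3 against 19.5, 13, 13 and 13.7 CPM (log2 fold change 1.23 ± 0.22, adjusted p = 0.000283), as were Ccl6 (0.61 ± 0.09), Ccl2 (0.92 ± 0.20) and Ccl3 (0.69 ± 0.13). Il22ra2, a soluble antagonist of interleukin 22, was at 26.4, 9.62, 13.6 and 23.6 CPM in ceco-colonic and 2.8, 1.47, 1.21 and 1.51 CPM in inguinal libraries (log2 fold change 3.39 ± 0.33, adjusted p = 2.15e-07), with ceco-colonic libraries 1 and 4 well above libraries 2 and 3.

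Dendritic cells that have matured and moved in from tissue had the largest share of higher genes among the 43 lists. Of 15 genes of this state 11 were higher, with a median of 0.63, and their summed level ran from 9137 to 9485 CPM in ceco-colonic against 5507 to 5810.5 CPM in inguinal libraries. Fscn1, the actin-bundling protein that marks them, was at 2814, 2922, 2848 and 2972 CPM in ceco-colonic and 1929, 1895, 1783 and 1848 CPM in inguinal libraries (log2 fold change 0.63 ± 0.12, adjusted p = 0.000469). Ccr7, the receptor that brings them to the node, was at 1021, 896, 901 and 865 against 628, 539.8, 508 and 550.1 CPM (log2 fold change 0.73 ± 0.08, adjusted p = 1.86e-06). Ido1, a tryptophan-degrading enzyme, was at 6.46, 5.35, 5.64 and 5.42 against 0.88, 0.797, 0.771 and 0.614 CPM (2.90 ± 0.11), and Il4i1, an amino acid oxidase, at 791, 741, 788 and 784 against 313, 363, 339 and 360.2 CPM (1.18 ± 0.13). Apol7c, an apolipoprotein L gene, also rose (1.33 ± 0.13). Il12b, a subunit of interleukins 12 and 23, was at 118, 124, 86.3 and 102 against 58.4, 48.5, 39.3 and 49.2 CPM (1.14 ± 0.15).

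Type 2 dendritic cell genes split: 5 of 14 were higher and 6 lower. Cd207, which encodes langerin of Langerhans cells, was at 0.624, 0.238, 0.303 and 0.404 CPM in ceco-colonic and 11.5, 7.37, 9.47 and 9.42 CPM in inguinal libraries (log2 fold change -4.59 ± 0.45, adjusted p = 2.07e-07). Cd209a (21.3, 19.8, 12.2 and 18 against 50.02, 50.6, 54.8 and 44.8 CPM, -1.49 ± 0.23), Mgl2 (-1.60 ± 0.19) and Clec10a (-1.06 ± 0.12), lectins of dermal type 2 cells, were lower too. On the higher side stood Pdcd1lg2, which encodes PD-L2 (44.2, 43.1, 40.1 and 42.5 CPM in ceco-colonic and 10.1, 13.1, 12.3 and 13.3 CPM in inguinal libraries, log2 fold change 1.80 ± 0.10), and Clec4a4, another lectin of type 2 cells (1.68 ± 0.17). For type 1 dendritic cells 4 of 11 genes were higher and 1 lower. The higher ones numbered 2 without inguinal library 4, and the lower ones 2 without ceco-colonic library 1 or 3 and 3 with only the 2 groups fitted. Cd8a, carried by resident type 1 cells, was at 31.6, 26.2, 26.9 and 27.7 against 59.4, 54.2, 51.5 and 50.9 CPM (-0.94 ± 0.14), whereas Itgae, the CD103 gene of migratory ones, was at 84.7, 71.8, 68.5 and 75 against 55.1, 47.5, 53.5 and 47.2 CPM (0.56 ± 0.09).

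Of 12 genes of class II antigen presentation 4 were higher and the others were not called (median 0.22), and 7 were higher with only the 2 groups fitted. Ciita, the master regulator of class II genes, was at 282, 268, 311 and 305 CPM in ceco-colonic and 190.2, 216, 209 and 217 CPM in inguinal libraries (log2 fold change 0.49 ± 0.08, adjusted p = 9.34e-05), and H2-DMb2, a peptide-loading chain, had a log2 fold change of 0.87 ± 0.09. Plasmacytoid dendritic cell genes showed no single direction, with 2 of 11 higher and 2 lower, or 5 lower with only the 2 groups fitted. Spib, an Ets-family factor, was higher (0.88 ± 0.07), and Siglech, their defining lectin, was lower (-0.59 ± 0.11).

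Interferon-response genes were more often higher. Of 18 tested 10 were higher, with a median of 0.61. This count fell to 5 without inguinal library 1 and to 4 without inguinal library 3. Isg15, a ubiquitin-like protein induced by interferon, was at 68.5, 79.3, 98.6 and 90.5 CPM in ceco-colonic and 32.1, 52.9, 27.6 and 41.9 CPM in inguinal libraries (log2 fold change 1.12 ± 0.25, adjusted p = 0.00206). Cxcl10 was at 87.2, 78, 107 and 100.3 against 30.1, 52.3, 44.6 and 51.1 CPM (log2 fold change 1.06 ± 0.21, adjusted p = 0.000965). In both the groups did not overlap, although inguinal library 2 came within 1.29 times of the lowest ceco-colonic library for Isg15.

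Of 15 genes induced by interferon gamma, which are GTPases apart from Ido1 and a chemokine, 6 were higher (median 0.33), and 10 were with only the 2 groups fitted. Gbp2 was at 283, 291, 246 and 302 against 154, 173, 156 and 183 CPM (0.75 ± 0.11), and Gbp5 and Tgtp1 had log2 fold changes of 0.61 ± 0.10 and 0.65 ± 0.12. Small intestinal nodes exceeded the ceco-colonic one in 9 of the 18 interferon-response genes. The Isg15 promoter is shown for an element found in part of the interferon-response genes, with the matches to GAAA, any 2 bases and GAAA in capitals. The letters are the 250 bases before its RefSeq start at chr4:156200819-156201068 (GRCm38.p6, minus strand, printed 5′ to 3′ along the gene).
Isg15: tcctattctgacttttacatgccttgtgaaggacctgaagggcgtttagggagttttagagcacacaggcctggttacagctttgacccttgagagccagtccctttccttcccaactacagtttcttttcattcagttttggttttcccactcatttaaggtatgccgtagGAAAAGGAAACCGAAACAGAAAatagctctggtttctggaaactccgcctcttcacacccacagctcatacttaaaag
The 3 matches overlap one another in 1 run that ends 56 bases before the start. On either strand the motif was found in 2.98% of 32851 promoters of this length and in 7 of the 12 listed interferon-response genes with a promoter entry, namely Cxcl10, Ifit1, Ifit3, Isg15, Oas1a, Oas3 and Rsad2.

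Innate lymphoid genes were more often higher than lower. Of 15 type 2 genes 7 were higher and 3 lower (median 0.26), and of 14 type 3 genes 5 were higher and 2 lower (median 0.09). Arg1, an arginine-degrading enzyme of type 2 cells and macrophages, was at 3.64, 3.34, 3.07 and 4.03 CPM in ceco-colonic and 0.632, 0.878, 0.761 and 0.678 CPM in inguinal libraries (log2 fold change 2.25 ± 0.16, adjusted p = 4.33e-09). Klrg1, an inhibitory receptor, and Il1rl1, the receptor for interleukin 33, had log2 fold changes of 1.28 ± 0.18 and 0.93 ± 0.15. Il33 itself, an alarmin stored in stromal nuclei, was at 289.9, 343, 282 and 313 against 117, 145, 157 and 171 CPM (log2 fold change 1.06 ± 0.11, adjusted p = 3.29e-07). The lower ones numbered 1 when any single one of 5 (type 2) or 6 (type 3) of the 8 libraries was left out, and for type 3 also with limma-voom, without the filter on low counts, with transcript estimates summed per gene and without the duodenal libraries that hold pancreatic RNA.

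Il22, the cytokine of type 3 cells that acts on gut epithelium, was at 3.15, 2.12, 2.18 and 1.36 CPM in ceco-colonic libraries and 0, 0.0585, 0.0408 and 0 CPM in inguinal ones. It was counted in every ceco-colonic library, was at 0 in 2 inguinal libraries, and was called (adjusted p = 9.28e-06). Its log2 fold change was 6.20, and 7.15 both without inguinal library 2 and with limma-voom. Tnfsf11, the gene of RANKL (37, 42.9, 32.5 and 40.9 against 19.6, 22.2, 20.6 and 23.3 CPM, 0.84 ± 0.11), and Nrp1 (0.51 ± 0.06) were the other type 3 genes with the smallest p. Of 15 natural killer genes 3 were lower. That count of 3 fell to 1 without inguinal library 2 or ceco-colonic library 4. Klrk1, the activating receptor NKG2D, was at 149, 160.2, 134 and 132 against 206, 215, 188 and 185 CPM (-0.46 ± 0.08). Gzmc, a granzyme of activated killer and innate lymphoid cells, was at 23.2, 21.2, 14.8 and 20.9 CPM in ceco-colonic and 33.4, 34.7, 34.9 and 43.2 CPM in inguinal libraries (log2 fold change -0.87 ± 0.15, adjusted p = 0.000305).

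Few lymphocyte genes were called. Of 20 genes 3 were higher and 4 lower (median -0.12), not far from the 10.6% and 10.3% over all genes tested, so no direction is read for the list. Cd3e was at 0.256, 0.178, 0.211 and 0.237 against 0.734, 1.14, 0.577 and 0.607 CPM (-1.80 ± 0.25), and Trac, the constant segment of the T-cell receptor alpha chain, at 2.26, 2.39, 1.97 and 2.08 against 1.15, 1.0, 1.31 and 1.32 CPM (0.86 ± 0.11), so 2 defining T-cell genes went in opposite directions at low levels. Ms4a1, which encodes the B-cell antigen CD20, was at 1.36, 1.57, 1.09 and 1.63 against 0.659, 0.585, 0.597 and 0.756 CPM (1.12 ± 0.13). Cd4, made also by inducer cells of lymphoid tissue and by macrophages, was the most abundant member to change, at 144, 145, 187 and 152 against 267, 323, 304 and 307 CPM (log2 fold change -0.93 ± 0.12, adjusted p = 7.77e-06).

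Mast cell genes were lower. Of 13 tested 10 were lower and 1 higher, with a median of -3.58, the lowest among the groups examined. Mcpt4, a chymase of connective tissue mast cells, was at 0.16, 0.0654, 0.135 and 0.136 CPM in ceco-colonic and 16.4, 29.1, 12.7 and 23.6 CPM in inguinal libraries (log2 fold change -7.34 ± 0.62, adjusted p = 3.43e-08). Cpa3, the mast cell carboxypeptidase, was at 0.571, 0.475, 0.335 and 0.33 against 7.99, 11.1, 5.12 and 10.05 CPM (log2 fold change -4.33 ± 0.30, adjusted p = 1.77e-09), and Cma1, another chymase, at 1.09, 0.986, 1.27 and 0.958 against 11.2, 18.5, 8.1 and 13.7 CPM (-3.58 ± 0.23). Tpsb2, a tryptase, had a log2 fold change of -6.53 ± 0.61. Inguinal library 2 was the highest inguinal library for each of these 4 genes and inguinal library 3 the lowest, and both were far above every ceco-colonic library. Kit, the receptor for stem cell factor, which other cells also carry, was the member on the higher side (136, 119, 113 and 119 against 74.7, 81.4, 76.2 and 78.9 CPM, 0.65 ± 0.12).

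Granulocyte genes changed in both directions. Of 15 tested 4 were higher and 4 lower. Genes known from eosinophils were among the higher ones: Prg2, the major basic protein, was at 4.94, 3.82, 3.08 and 3.24 CPM in ceco-colonic and 0.324, 0.452, 0.408 and 0.666 CPM in inguinal libraries (log2 fold change 3.03 ± 0.26, adjusted p = 3.66e-08), and Siglecf and Ccr3 had log2 fold changes of 1.39 ± 0.24 and 1.59 ± 0.38. The neutrophil granule genes Ngp (1.3, 1.87, 1.6 and 1.91 against 3.78, 5.88, 4.13 and 7.59 CPM, -1.68 ± 0.31) and Camp (-1.70 ± 0.37) were lower. Ear2, a ribonuclease of eosinophils and monocytes, was lower too (-0.80 ± 0.10).

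Genes of secreted proteins of defense and clotting changed in both directions. Of 15 genes 4 were higher and 7 lower, and the lower ones numbered 4 without inguinal library 4. Serpinc1, antithrombin, was at 22.6, 26.6, 20.3 and 21.4 CPM in ceco-colonic and 5.76, 5.78, 5.66 and 6.2 CPM in inguinal libraries (log2 fold change 1.96 ± 0.10, adjusted p = 1.87e-11), and its log2 fold change was 1.15 with transcript estimates summed per gene. Bpifb3 (0.117, 0.0416, 0.0693 and 0.14 against 14.3, 9.02, 8.21 and 8.89 CPM) and Bpifb2 (0.208, 0.154, 0.128 and 0.213 against 11.1, 7.07, 5.9 and 6.62 CPM), which belong to a family of lipid-binding defense proteins, had log2 fold changes of -6.74 ± 0.34 and -5.44 ± 0.24, but they are not members of this list and were chosen by the size of their change. Cyp2f2, a cytochrome P450 best known from airway, was at 2.44, 2.19, 3.92 and 3.5 against 38.5, 25.9, 29.9 and 31.9 CPM (log2 fold change -3.38 ± 0.36, adjusted p = 7.2e-07). In each of these genes the groups were fully apart.

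Targets of the aryl hydrocarbon receptor, which senses plant and microbial compounds, were more often lower. Of 8 genes 5 were lower and 1 higher (median -0.31). Aldh3a1 was at 0.357, 0.279, 0.292 and 0.345 against 2.99, 4.19, 5.94 and 4.83 CPM (-3.81 ± 0.31), and Cyp1b1 at 108, 97.4, 98 and 89.9 against 198, 175, 176 and 189 CPM (log2 fold change -0.91 ± 0.11, adjusted p = 2.56e-06). Cyp1a1, the classical target, was low and lower still in the ceco-colonic node (0.432, 0.624, 0.237 and 0.357 against 1.55, 1.11, 0.914 and 1.22 CPM, -1.55 ± 0.25). Ahrr, the repressor induced by the receptor, was the higher one, at 21.4, 18.6, 21.8 and 19.7 against 9.11, 8.77, 9.71 and 9.08 CPM (log2 fold change 1.15 ± 0.14, adjusted p = 2.85e-06).

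Counts in the remaining groups varied. Complement genes gave 4 higher and 2 lower of 20, not far from the 10.6% and 10.3% over all genes tested. They were led by C7 (2.53 ± 0.34), a component of the membrane attack complex. Toll-like receptor genes gave 4 higher and 4 lower of 12, with Tlr12 higher (0.94 ± 0.07) and Tlr5, the flagellin receptor, lower (-1.0 ± 0.11). For lipid handling of macrophages the counts were 5 higher and 2 lower of 17, with 1 lower without inguinal library 1 or ceco-colonic library 4. Cell division genes were higher in 5 of 14, led by Top2a (87.3, 91.5, 78.1 and 81.7 against 60.3, 66.2, 55.4 and 63.3 CPM, 0.47 ± 0.11), and the count fell to 2 without inguinal library 1 or ceco-colonic library 2 and to 3 without inguinal library 3, but rose to 8 with DESeq2 and to 10 with only the 2 groups fitted. Immediate early and stress genes were higher in 6 of 13 and lower in 1; Jun was at 81.4, 85.1, 94 and 96.3 against 50.7, 59.1, 56.9 and 64.3 CPM (0.63 ± 0.12).

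Genes of neighboring tissues bear on what else was cut out with a node. Pancreatic acinar genes summed to 9.79 to 12.5 CPM in ceco-colonic and 9.83 to 11.8 CPM in inguinal libraries, at a median log2 fold change of 0.09 over 16 genes. Intestinal epithelial genes summed to 20.02 to 21.6 against 21.9 to 24.7 CPM, with 5 of 15 higher and 2 lower. Among keratinocyte and mammary genes 3 of 8 were lower and 2 higher, at sums of 5.91 to 7.85 against 5.25 to 6.47 CPM. The epithelial genes called lower and the keratinocyte genes called higher numbered 1 each when any one of 5 and of 6 of the 8 libraries, respectively, was left out. Smooth muscle genes were lower in 3 of 10, in 9 with only the 2 groups fitted and in 5 without the duodenal libraries that hold pancreatic RNA, with sums of 737 to 788 against 1055 to 1230.5 CPM. Erythroid genes were lower in 4 of 8, which fell to 1 without ceco-colonic library 1 and to 2 without inguinal library 1 or ceco-colonic library 4. The part of these tissues in the differences above was not tested.

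**Figure D4:**
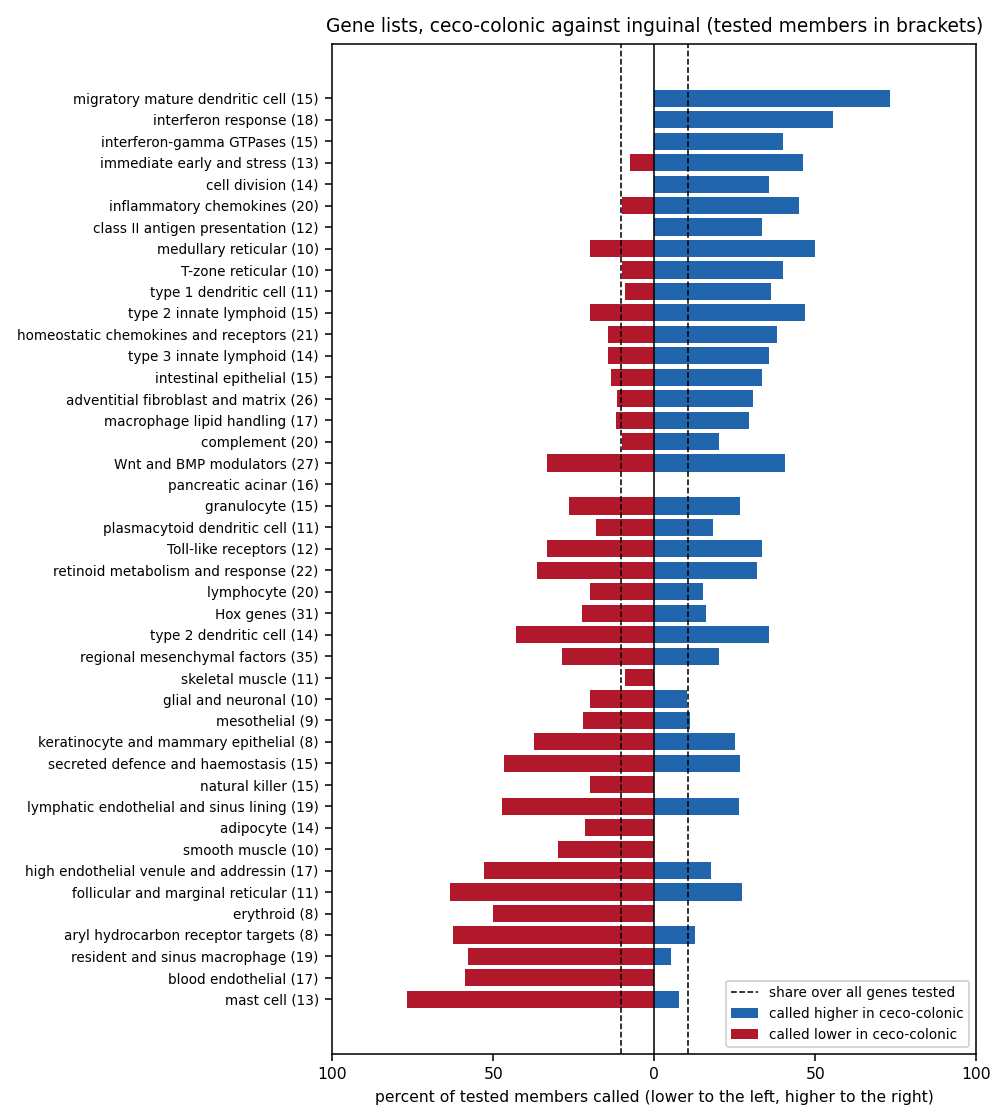
Percent of the tested members of each of 43 gene lists that were called higher (blue, to the right) or lower (red, to the left) in ceco-colonic against inguinal nodes, with the number of members tested in brackets; dashed lines mark the share over all genes tested (10.6% higher, 10.3% lower). Mature migratory dendritic cell and interferon-response genes extend furthest to the right and mast cell, aryl hydrocarbon receptor and follicular reticular genes furthest to the left.

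Part of the difference from the inguinal node was not shared with the other gut nodes. Between ceco-colonic and small intestinal nodes 4894 genes were called, 16.6% of those tested, with 2276 higher and 2618 lower in the ceco-colonic node. Between small intestinal and inguinal nodes 7981 genes were called (27.1%), 4156 of them higher (14.1%) and 3825 lower (13%) in the small intestinal nodes. The comparisons of the ceco-colonic node with the small intestinal and with the inguinal node both called 2453 genes (8.34%). These 2 comparisons share the ceco-colonic libraries, so their values are given side by side and no overlap is read from them. Mmp3, the protease stromelysin-1, was at 102, 141, 73.7 and 96.8 CPM in ceco-colonic and 16, 25.4, 33.2 and 27.5 CPM in inguinal libraries, and at a lowest, median and highest level of 4.59, 7.72 and 26.4 CPM in small intestinal libraries. It was thus above both references (2.01 ± 0.35 over inguinal and 3.66 over small intestinal). P4ha3, a collagen prolyl hydroxylase, showed the same order, at 6.25, 5.48, 5.46 and 5.68 against 0.529, 0.452, 0.536 and 0.801 CPM with 0.415, 0.836 and 1.43 CPM in small intestinal nodes. Tnfsf4, the gene of the costimulatory ligand OX40L (15, 13.5, 9.31 and 12.2 against 3.04, 2.85, 3.06 and 2.44 CPM, small intestinal 1.07, 2.57 and 4.61 CPM), and Col24a1, a fibrillar collagen (2.62 ± 0.26 and 2.33), did likewise.

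Other genes were lower in the ceco-colonic node than in both references. Col6a6 had a lowest, median and highest level of 20.7, 30.1 and 47.1 CPM in small intestinal nodes, close to its inguinal level and far above the ceco-colonic one (log2 fold change -3.81 ± 0.19, adjusted p = 5.67e-11). Cd163, the hemoglobin scavenger receptor of macrophages, was at 5.91, 3.14, 4.3 and 3.26 CPM in ceco-colonic and 14, 8.52, 11.2 and 13.3 CPM in inguinal libraries, with 13.4, 23.6 and 62.1 CPM in small intestinal libraries. Clec4g, a lectin of sinusoidal endothelium, was at 6.84, 4.69, 5.39 and 3.76 against 7.75, 6.89, 7.47 and 8.28 CPM, with 17.4, 26.8 and 32.7 CPM in small intestinal libraries. Gpc3, a glypican, and Glp2r, the receptor for an intestinal growth peptide, were above the inguinal level (1.0 ± 0.19 and 1.91 ± 0.18) and below the small intestinal one (-2.17 and -2.12).

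**Figure D5:**
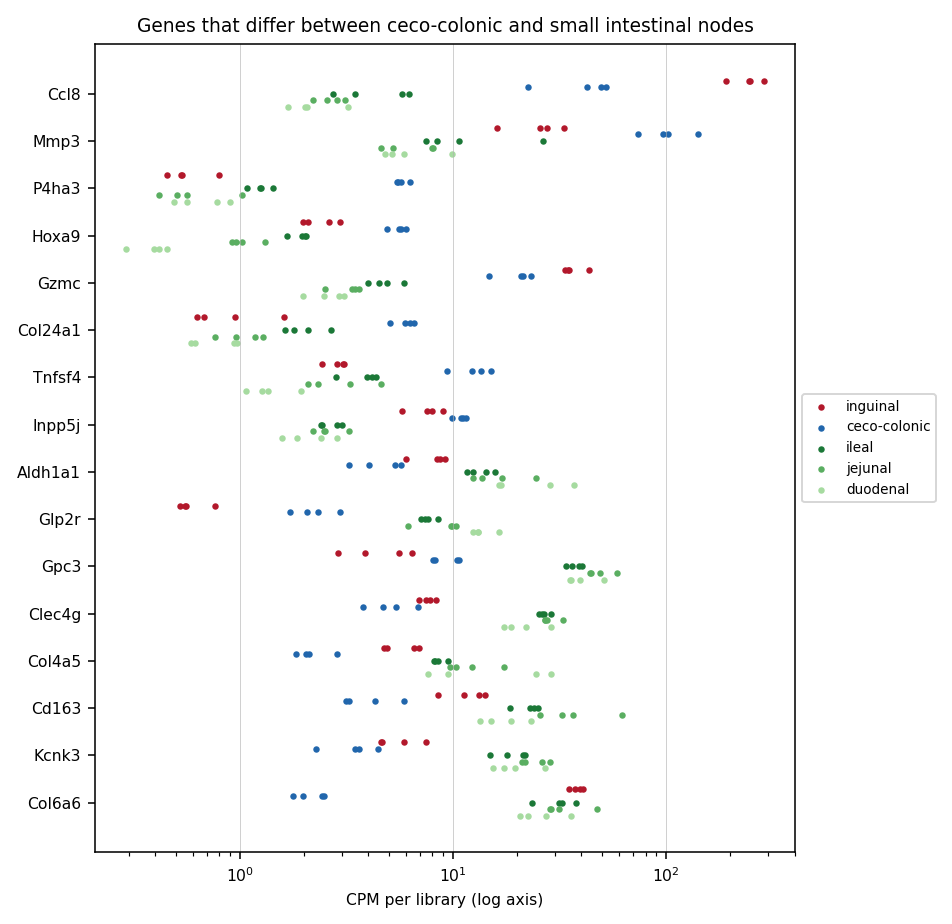
CPM in each of the 20 libraries (horizontal log axis) for the 8 genes with the highest and the 8 with the lowest log2 fold change of ceco-colonic over small intestinal nodes among genes called in both comparisons, colored by node position. Mmp3, P4ha3, Tnfsf4 and Col24a1 are highest in the ceco-colonic libraries, Col6a6 and Cd163 are lowest there, and Ccl8 and Gzmc lie between the small intestinal and the inguinal levels.

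A small set of genes reversed direction along the gut. For 158 genes, 0.537% of those tested, the ceco-colonic and the small intestinal nodes both differed from the inguinal node, in opposite directions, and also differed from each other. In 102 of them (0.347%) the ceco-colonic node was lower and the small intestinal nodes higher than the inguinal node, and in 56 (0.190%) the reverse. Of the first kind were Lyve1 (-0.63 in ceco-colonic and 0.81 in small intestinal against inguinal nodes), Flt4 (-0.60 and 0.53) and Stab2, a sinus scavenger receptor (-0.53 and 0.43). Of the second kind were Hoxa9 (1.21 and -1.38), Mmp3 (2.01 and -1.64), Il12b (1.14 and -0.75) and Cx3cl1, the gene of fractalkine, at 64.9, 65.7, 73.6 and 69.2 against 43.1, 46.2, 44 and 45.5 CPM (0.61 and -0.63). Of the names in this paragraph, only Lyve1 is a fixed name. Hoxa9 and Mmp3 were picked by their high fold change over small intestinal nodes, so their reversal is partly a result of that choice. The other names were chosen after their values were seen. The inguinal libraries are shared by the paired values. The difference between the gut positions does not use their levels, though its test rests on the spread of all libraries fitted.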

How the data were processed

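PolyA RNA of whole lymph nodes was sequenced in 20 libraries, 4 for each of 5 node positions, and the 8 ceco-colonic and inguinal libraries are the subject here. The labels' protocols name PicoPure for RNA isolation and a NEBNext poly(A) kit for the libraries. The submitters' processing notes list kallisto, limma, edgeR, GRCm39 and mm10, and neither versions nor the role of each build were given in the sources used here. Expected counts, which are estimates and need not be whole, fill the deposited gene table. The deposited transcript tables hold estimated counts and TPM. Summed length-scaled TPM gave 99.67% of the gene table's values within 0.001 on the log2 scale over 12483 genes, against 3.355% for plain sums of estimated counts, so the values tested are estimates scaled by transcript length.

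Estimates were rounded and fitted with edgeR 4.0.16 (R 4.3.3) in all 20 libraries with 1 mean per position, with TMM normalization, on the 29411 genes that passed filterByExpr (at least 10 counts and a total of 15). The quasi-likelihood test gave each comparison with 15 residual degrees of freedom, and p-values were adjusted by Benjamini and Hochberg over all genes tested, with a gene called under 0.05. Small intestinal values are the mean of 3 positions in the same fit. CPM are TMM-scaled. The procedure was run on simulated counts with the same spread for every gene and changes only in well-counted genes. That setting is simpler than these data and does not show how the test does for genes of low counts. Promoters came from RefSeq (GRCm38.p6) by gene symbol.

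The 43 lists hold 664 distinct symbols, of which 628 were tested, and are described by counts and medians without a set test. A gene can belong to more than 1 list, so the counts of different lists are not separate. The groups compared and the lists were chosen with earlier results of these data known, so no list is independent evidence. Genes were named by 4 rules: 23 fixed names, of which 1 was not tested; the 12 highest and 12 lowest called fold changes with at least 5 CPM in the higher group and no overlap; the 8 highest and 8 lowest against small intestinal nodes among genes called in both comparisons; and up to 3 called members per list by the smallest p, or, for a list without a called member, its 2 most abundant. Gene models without a proper name and antigen receptor segments were left out of the second and the third rule. These rules name 159 genes, of which the text describes some. Of the 169 genes in the text besides Aldh1a1, 60 were named outside these rules, such as Tcf21, Emx2, Ccr7 and Kit, and were chosen after their values were seen. Some members of the lists are not reported here by name. Alternatives were DESeq2 1.42.0 and limma-voom (limma 3.58.1) as tests, DESeq2-type size factors, an unfiltered gene set, the compared groups alone, the replicate number as a block, transcript estimates summed per gene, leaving out each of the 8 libraries, and, added after seeing the data, leaving out 2 duodenal libraries that hold pancreatic RNA.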

Additional observations from a re-analysis of the deposited data

Results flagged for a closer look

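The 169 genes named besides Aldh1a1 were checked. For 12 of them the ceco-colonic and the small intestinal nodes differed from the inguinal node in opposite directions. In these the difference between the gut positions, tested in the same edgeR fit, was called as well. The log2 difference of ceco-colonic from small intestinal nodes was 3.79 for Hoxa10, 3.66 for Mmp3, 2.59 for Hoxa9, 1.89 for Il12b and 1.25 for Cx3cl1, which were above the inguinal level in the ceco-colonic and below it in the small intestinal nodes. It was -2.59 for Cd163, -2.30 for Clec4g, -1.54 for Postn, -1.44 for Lyve1, -1.42 for Cyp1b1, -1.13 for Flt4 and -0.96 for Stab2, which went the other way.

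In 16 of 338 groups of 4 libraries, the gap between 1 library and its nearest neighbor was large against the range of all 4. Such a library is called apart here. Chance alone flags about 1 in 20 such groups, so the count of 16 is no more than chance would give. The flagged values are therefore listed as a description, and no single one is read as a finding. Among inguinal libraries, library 1 was apart for Bpifb3 (14.3 CPM against 8.21 to 9.02), Ccl17 (19.5 against 12.97 to 13.74) and Glp2r (0.766 against 0.523 to 0.559). Inguinal library 2 was apart for Flt4 (89.7 against 103.2 to 103.5 CPM) and Mfap4 (0.218 against 0.302 to 0.310). Inguinal library 3 was apart for Cd209g (38.2 against 27.5 to 29.1 CPM), Emx2 (2.001 against 1.72 to 1.75), Hoxb7 (10.01 against 8.40 to 8.62) and Nkx3-2 (0.0766 against 0.0216 to 0.0258). Inguinal library 4 was apart for Hmox1 (353 against 136 to 165 CPM) and Gzmc (43.2 against 33.4 to 34.9). Among ceco-colonic libraries, library 2 was apart for Ccl21a (3960 against 3233 to 3303 CPM) and Il4i1 (741 against 784 to 791), library 3 for Ccl17 (25.9 against 37.1 to 38.2), and library 4 for Cyp26b1 (33.2 against 19.4 to 20.8) and Bmp2 (30.5 against 25.3 to 26.1). No cause of these values was tested.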

How the results depend on the processing

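The count of genes called between ceco-colonic and inguinal nodes was 6168 and ranged from 5095 to 6072 when each of the 8 libraries was left out in turn. It was 6133 with size factors of the DESeq2 type, 5575 without the filter on low counts, 6744 with DESeq2, 6169 with limma-voom, 7051 with only the 2 groups fitted, 6831 with transcript estimates summed per gene and 6674 without the 2 duodenal libraries that hold pancreatic RNA. None of these differed from the main count by more than 1.5 times. Against small intestinal nodes the count of 4894 ranged from 3576 to 4822 without single libraries. Of the listed genes 316 of 628 were called, and 277 to 298 without single libraries; of the genes named by rule 151 of 158 were called, and 141 to 148 without single libraries.

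With the replicate number as a block, 6928 genes were called against the inguinal node, 5575 against small intestinal nodes and 8799 between small intestinal and inguinal nodes, with 353 listed and 151 rule-named genes; the natural killer genes called lower numbered 6 against 3 and the complement genes called lower 4 against 2. The numbers were not taken as pairs, since 1 of 4 correlations was under 0.1: same-numbered ceco-colonic and inguinal libraries correlated in their deviations from the group means at 0.517, 0.262, 0.0027 and 0.24 for numbers 1 to 4 over 16075 genes, and ceco-colonic libraries 1, 2 and 4 correlated best with the inguinal library of their own number and library 3 with inguinal library 4. The cause was not tested.

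Of 3742 single gene values under the alternatives, 3674 kept their side of the threshold, 66 lost the call and 2 gained it. No called gene among them reversed, while 8 values of 3 genes that were not called changed sign. Of 1376 counts of higher or lower members of a list, 100 moved by more than 1.5 times, 58 of them without single libraries and 14 with only the 2 groups fitted. Emx2, Hoxa11, Il22 and Tcf21 were at 0 in 2 of the 4 libraries of their lower group, so the depth limits the precision of their fold changes.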
